A study of Homo sapiens with 14 samples.

Results

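CDK2, the kinase that drives cells into and through DNA synthesis, was followed here together with 9 genes that activate it, inhibit it or carry its signal, namely the cyclins CCNE2, CCNA1 and CCNA2, the inhibitors CDKN1A and CDKN1B, the phosphatase CDC25A, the substrate NPAT and the ubiquitin ligase receptors SKP2 and FBXW7. The 10 genes were found by symbol in the platform annotation, and each had a single row among the 18398 genes measured. The cells were OVCAR-3, an established human ovarian carcinoma line, and sublines of it made resistant to PHA-533533, a CDK2 inhibitor. Sublines R1, R3, R5, R6 and R7 were derived separately, and each has a selected array, made at passage 5 with 4 µM inhibitor in the medium, and a stable array, made at passage 10 or later with 0 µM. Against these 10 resistant arrays stood 4 arrays of parental OVCAR-3 grown without inhibitor. All 14 arrays are of subconfluent cultures of the same parent line, the labels do not say whether a subline is a single clone, and no label gives the 4 parental replicates an origin of their own, so a p-value reflects the spread between these arrays, which may be technical. Selected and stable arrays differ in inhibitor and in passage, and the effects of these cannot be told apart.

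CDK2 is inactive until a cyclin binds it. Cyclins E1 and E2 pair with it at the transition from G1 to S phase and cyclins A1 and A2 from S phase onward, CDC25 phosphatases remove the inhibitory phosphates that WEE1 places on it, and p21 (CDKN1A) and p27 (CDKN1B) bind and block the cyclin and kinase complex. SKP2 marks p27 for destruction, FBXW7 marks cyclin E, and NPAT, once phosphorylated by cyclin E and CDK2, switches on replication-dependent histone genes. OVCAR-3 is known for amplified CCNE1, the gene of cyclin E1. RNA levels say nothing of the protein or the kinase activity, on which much of this control acts.

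Promoter sequence is printed for CCNA1, NPAT and CDKN1A, called higher in selected cells, and for CCNA2 and CDC25A, which were not called. CDKN1B, SKP2 and FBXW7 were not called either, and their windows are summarised after the sequences. Whether promoter words go with the calls was not tested. The RefSeq promoter table (GRCh38.p14) held 8 of the 10 members, and CDK2 and CCNE2 are named only. The 250 bases before the annotated start are printed 5′ to 3′ in the direction of the gene, with capitals marking matches on either strand to the E2F words TTTGGCGC, TTTCCCGC, TTTGCCGC or TTTCGCGC, the CCAAT box CCAAT, the GC box GGGCGG or the cAMP response element TGACGTCA.
CCNA1, chr13:36431705-36431954 on the plus strand: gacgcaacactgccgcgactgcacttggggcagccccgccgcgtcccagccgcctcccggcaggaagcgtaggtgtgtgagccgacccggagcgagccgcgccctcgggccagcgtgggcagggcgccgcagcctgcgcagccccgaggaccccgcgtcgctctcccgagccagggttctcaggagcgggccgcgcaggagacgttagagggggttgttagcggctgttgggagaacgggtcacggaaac
NPAT, chr11:108222639-108222888 on the minus strand: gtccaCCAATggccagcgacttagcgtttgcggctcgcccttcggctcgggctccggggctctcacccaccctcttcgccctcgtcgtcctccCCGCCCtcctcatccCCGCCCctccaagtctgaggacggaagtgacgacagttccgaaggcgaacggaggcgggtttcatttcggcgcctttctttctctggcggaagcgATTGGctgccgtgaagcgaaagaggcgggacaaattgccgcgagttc
CDKN1A, chr6:36678464-36678713 on the plus strand: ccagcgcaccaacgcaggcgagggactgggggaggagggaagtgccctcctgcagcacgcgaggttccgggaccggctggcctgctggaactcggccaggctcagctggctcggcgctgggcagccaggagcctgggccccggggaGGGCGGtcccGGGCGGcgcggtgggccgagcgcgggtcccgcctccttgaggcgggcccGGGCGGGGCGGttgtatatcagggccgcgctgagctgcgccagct
CCNA2, chr4:121823884-121824133 on the minus strand: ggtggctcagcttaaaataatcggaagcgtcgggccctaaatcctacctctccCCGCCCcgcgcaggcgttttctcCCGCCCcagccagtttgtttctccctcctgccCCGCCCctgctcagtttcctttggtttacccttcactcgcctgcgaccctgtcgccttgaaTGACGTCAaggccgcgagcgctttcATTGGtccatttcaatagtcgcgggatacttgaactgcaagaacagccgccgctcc
CDC25A, chr3:48188418-48188667 on the minus strand: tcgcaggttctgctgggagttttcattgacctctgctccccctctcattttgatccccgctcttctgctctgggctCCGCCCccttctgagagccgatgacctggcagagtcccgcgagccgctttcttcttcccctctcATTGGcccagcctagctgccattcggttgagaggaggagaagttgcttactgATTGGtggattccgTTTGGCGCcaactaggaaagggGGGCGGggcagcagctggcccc
The CCNA1 window held none of these words and was 72.8% G and C with 31 CpG dinucleotides, against a median of 58.0% and 11 over 35116 windows of the same length. NPAT had 2 CCAAT boxes and 2 GC boxes, and CDKN1A had 4 GC boxes, of which the pair nearest the start overlap in a shared base. CCNA2 had 1 CCAAT box, 3 GC boxes and the 1 cAMP response element found among these 5 windows, while CDC25A alone of the 5 had an E2F word, beginning at position -44 from the start, beside 2 CCAAT boxes and 2 GC boxes. Of the windows not printed, CDKN1B had 2 CCAAT boxes and 1 GC box, and SKP2 had 1 GC box. Neither these nor the 4 windows of FBXW7 held an E2F word or a cAMP response element. Over all windows E2F words occurred in 2.79%, CCAAT in 32%, GGGCGG in 42.6% and TGACGTCA in 1.65%.

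Deposited values are log2 signal, and differences below are log2 differences of group means with limma's standard error. In bulk RNA, fewer expressing cells and less RNA per cell cannot be told apart. The mean of 340 olfactory receptor genes, which most tissues do not express and which serves as a measure of background, ranged from 6.06 to 6.60 in selected, 6.18 to 6.70 in stable and 6.16 to 6.71 in parental arrays. It did not differ between groups by more than their spread (two-sided exact permutation p = 0.595 for selected and p = 0.651 for stable against parental, p = 0.254 for selected against stable), but in all 5 sublines the selected array had the lower value, with selected minus stable between -0.38 and -0.03. The 8 epithelial markers, EPCAM, KRT8, PAX8 and WFDC2 among them, had mean signal of 11.05 to 11.94 per array. The means of 5 measured leukocyte markers lay at 6.19 to 6.43, of 4 endothelial markers at 6.76 to 7.03 and of 6 fibroblast markers at 6.85 to 7.18. Some single markers lay higher, with averages over all arrays of 9.08 for COL1A1, 7.83 for CD14 and 7.78 for COL1A2. No gene of these lists was called in the 3 comparisons without a block or covariate. CDH1 was called for selected against stable cells with subline as a block (0.59, limma adjusted p = 0.0384) and EPCAM for selected against parental cells with the olfactory receptor mean as covariate (0.23, limma adjusted p = 0.0314). MUC16 differed by -0.88 between selected and parental cells (limma adjusted p = 0.0591) and KRT19 by 1.12 between selected and stable cells (limma adjusted p = 0.34). The part of these shifts in the results below was not tested. FBXW7 lay below the 95th percentile of the olfactory receptor genes, 7.76, on all 14 arrays, and CDKN1A did on 0 of 5 selected, 4 of 5 stable and 3 of 4 parental arrays. With the mean of the olfactory receptor genes in the fit, 4 members were called for selected against parental cells (12.6% of all genes, 8.04% higher), 0 for stable against parental cells (0.408%, 0.212% higher) and 1 for selected against stable cells (2.88%, 1.59% higher), the same numbers as without it.

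Selected cells were first set against parental cells. These groups differ in inhibitor and in acquired resistance, and no parental array was made with inhibitor, so the effects cannot be told apart. Of the 10, 4 were higher and 0 lower at an adjusted p below 0.05, where 6.92% of all genes were called and 5.03% were called higher. The cyclin genes CCNA1 and CCNE2, the inhibitor CDKN1A and the substrate NPAT rose. CDK2, CCNA2, CDKN1B, CDC25A, SKP2 and FBXW7 did not pass. In 3 of the 4, CCNA1, CCNE2 and CDKN1A, the 5 selected and 4 parental arrays did not overlap, as was so for 9.77% of all genes (6.81% with selected higher and 2.96% lower). At an unadjusted p below 0.05 there were 7, all higher, where 20.3% of all genes reached that level (14.1% higher). The median difference over the 10 genes was 0.28, against -0.01 over all genes. Centring each array on its median left CCNA1 and CDKN1A called, a joint fit of all 14 arrays left CDKN1A, and leaving out subline R7 left CCNA1.

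**Figure D1:**
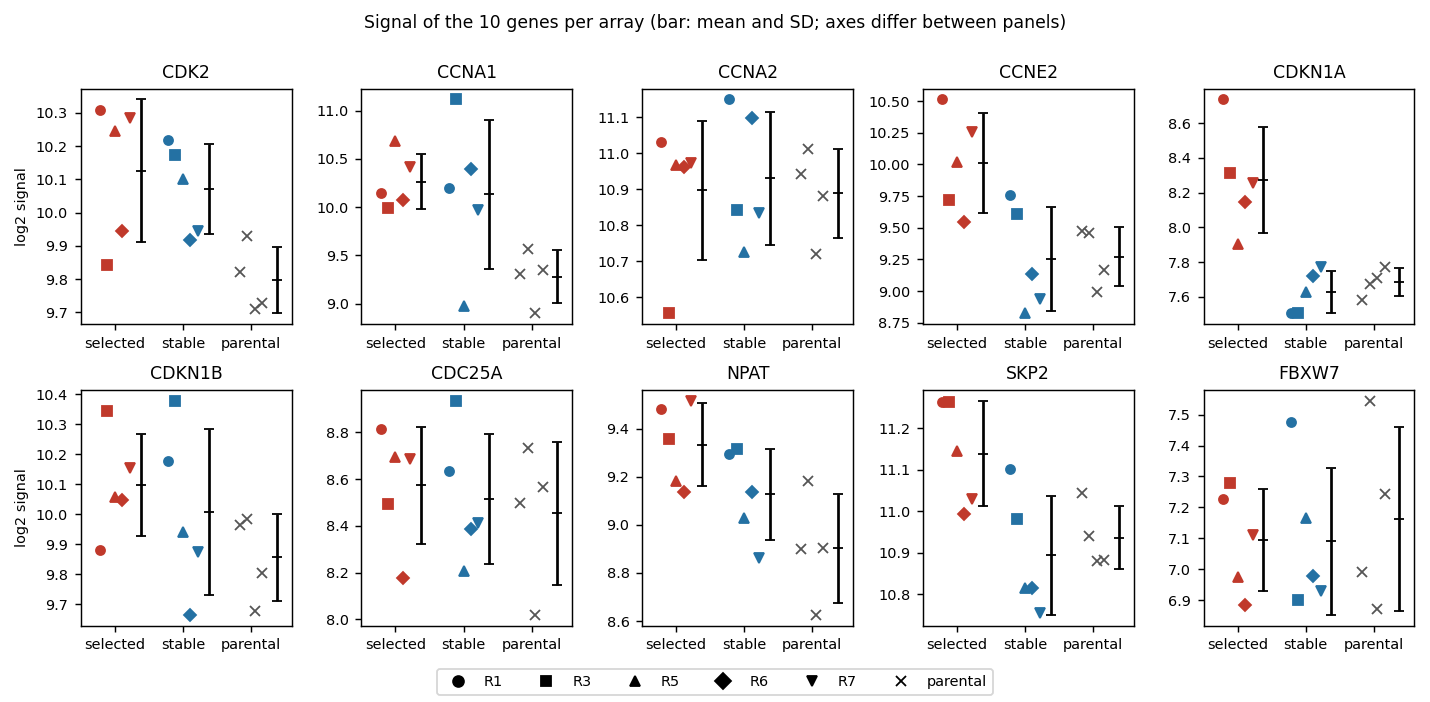
log2 signal of each of the 10 genes on every array (y axis, scale differing between panels) in selected, stable and parental cells (x axis), with symbols for sublines and bars for mean and SD (n = 5, 5 and 4). CDKN1A in selected arrays, at 7.91 to 8.74, lies above all stable and parental arrays. CCNA1 lies above the parental arrays on 9 of 10 resistant arrays, 2 per subline, a count for which no share of all genes was worked out.

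CCNA1 encodes cyclin A1, a cyclin best known from male germ cells and myeloid leukaemia that can activate CDK2. Its signal in selected arrays was 10.15 (R1), 9.99 (R3), 10.69 (R5), 10.08 (R6) and 10.41 (R7). In parental arrays it was 9.31, 9.56, 8.90 and 9.35. Every selected array was thus above the highest parental array, and the difference was 0.98 (SE 0.16, 1.98-fold, limma adjusted p = 0.00474). CCNA1 kept its call whichever array was left out. A fit of all 14 arrays as 3 groups, which takes in the wide stable values, ended it (adjusted p = 0.0738).

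CCNE2, cyclin E2, is the close relative of CCNE1. It stood at 10.52 (R1), 9.72 (R3), 10.02 (R5), 9.55 (R6) and 10.25 (R7) when selected, against 9.47, 9.46, 8.99 and 9.17 in parental cells. R6 was only just above the highest parental array, while R1 and R7 were far above it, and the difference was 0.74 (SE 0.18, 1.67-fold, limma adjusted p = 0.0331). The call ended without parental replicate 1 (adjusted p = 0.0524), 3 (adjusted p = 0.0901) or 4 (adjusted p = 0.106) and without the selected array of R5 (adjusted p = 0.0524) or R7 (adjusted p = 0.0922). CCNE1 was 0.45 higher (SE 0.12, limma adjusted p = 0.0497), and its call ended without parental replicate 1, 3 or 4 and without the selected array of R1, R6 or R7 (adjusted p = 0.0815 to 0.127), with median centring (adjusted p = 0.0749) and in the fit of all 14 arrays (adjusted p = 0.0544). CCNA2, the cyclin A of dividing somatic cells, averaged 10.90 ± 0.19 in selected cells (SD, n = 5) and 10.89 ± 0.12 in parental cells (SD, n = 4). Its difference was 0.01 with a 95% interval of -0.22 to 0.24.

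CDKN1A, the p21 gene, rose as well. Selected arrays read 8.74 (R1), 8.31 (R3), 7.91 (R5), 8.15 (R6) and 8.25 (R7), whereas parental arrays read 7.58, 7.67, 7.71 and 7.77. The groups did not overlap, R5 lay nearest to the parental range, and the difference was 0.59 (SE 0.14, limma adjusted p = 0.025). Since 3 of the 4 parental arrays lay below the 95th percentile of the olfactory receptor genes and the other was at 7.77, the parental level was not separated from background and no fold is given. The call ended without parental replicate 1 (adjusted p = 0.0736), 2 (adjusted p = 0.0528), 3 (adjusted p = 0.0525) or 4 (adjusted p = 0.0632) and without the selected array of R3 (adjusted p = 0.0568) or R7 (adjusted p = 0.0627), with differences of 0.55 to 0.62. CDKN1B, the p27 gene, averaged 10.10 ± 0.17 in selected (SD, n = 5) and 9.86 ± 0.14 in parental cells (SD, n = 4), and its difference of 0.24 (SE 0.10) did not pass (limma adjusted p = 0.202). Of 12 listed p53 target genes, a group to which CDKN1A also belongs, 4 were called higher and 0 lower, with a median difference of 0.30. Over all genes 6.92% were called (5.03% higher). Differences were above 0 for 8 of the 12, and PLK3 (-0.22), BAX (-0.16) and BBC3 (-0.15) were among those below 0. The called genes were GDF15, a stress cytokine, at 0.93, ZMAT3, an RNA-binding protein, at 0.62, DDB2, a DNA damage sensor, at 0.60 and SESN1, a regulator of nutrient signalling, at 0.49. ZMAT3, DDB2 and SESN1 passed under every alternative run for this comparison that tested them, SESN1 not entering the filtered fit. GDF15 failed when any 1 of the 4 parental arrays was left out and without the selected array of R1, R3, R6 or R7 (limma adjusted p = 0.0511 to 0.124), and also with median centring (adjusted p = 0.0615) and in both fits of all 14 arrays (adjusted p = 0.18). MDM2, the ligase that restrains p53, was at 0.38 and did not pass (limma adjusted p = 0.0678). With the olfactory receptor mean as covariate MDM2 passed (0.34, limma adjusted p = 0.0436).

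NPAT was 9.48 (R1), 9.36 (R3), 9.18 (R5), 9.14 (R6) and 9.51 (R7) when selected, against 8.90, 9.18, 8.63 and 8.90 in parental cells. R1, R3 and R7 lay above the parental range and R5 and R6 within it. The difference of 0.43 (SE 0.12, 1.35-fold) passed narrowly (limma adjusted p = 0.0491). It failed without parental replicate 1 (adjusted p = 0.111), 3 (adjusted p = 0.121) or 4 (adjusted p = 0.128), and without the selected array of R1 (adjusted p = 0.0873), R3 (adjusted p = 0.0962) or R7 (adjusted p = 0.121).

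CDK2 itself read 10.31 (R1), 9.84 (R3), 10.25 (R5), 9.95 (R6) and 10.28 (R7) when selected, against 9.82, 9.93, 9.71 and 9.73 in parental cells. All but R3 lay above the parental range, and the difference of 0.33 (SE 0.11, 1.26-fold) did not pass (limma adjusted p = 0.0964). Without the selected array of R3 it was 0.40 and passed (adjusted p = 0.0474). SKP2 lay at 10.99 to 11.26 in selected and 10.88 to 11.04 in parental arrays and did not pass either, at 0.20 (SE 0.08, limma adjusted p = 0.176). FBXW7 differed by -0.07 (95% interval -0.36 to 0.22) and CDC25A by 0.12 (95% interval -0.22 to 0.46).

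**Figure D2:**
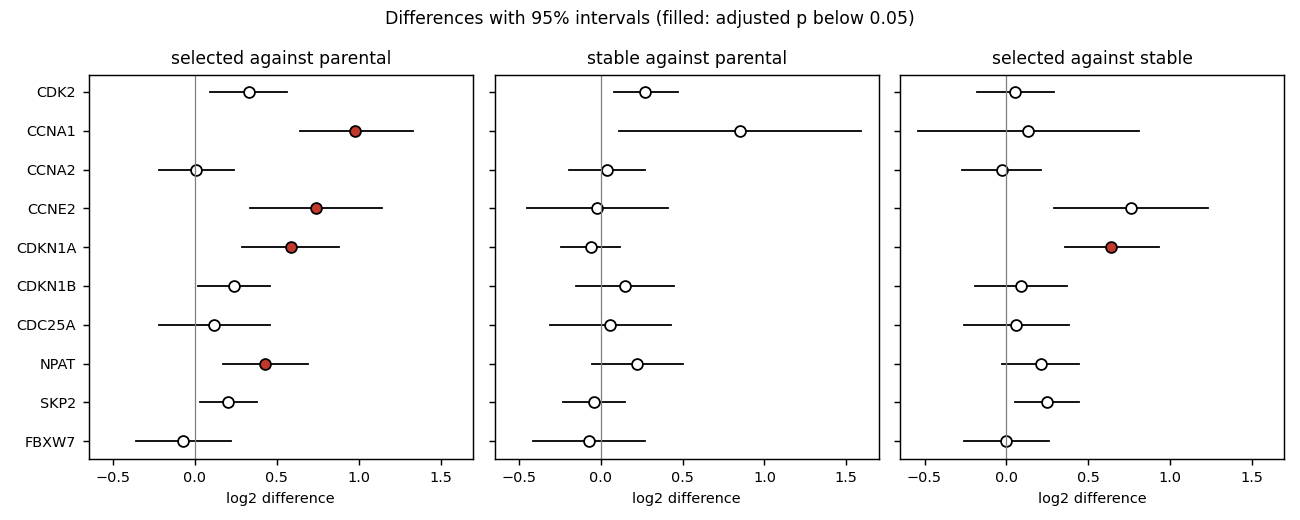
log2 differences (x axis) of the 10 genes (y axis) in 3 comparisons, with 95% intervals from the limma fits and filled points where the adjusted p was below 0.05. The filled points are CCNA1, CCNE2, CDKN1A and NPAT for selected against parental and CDKN1A for selected against stable.

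Of 25 listed other genes that act on CDK2 or with it, 24 were measured and 3 passed, where 6.92% of all genes passed. CCNE1 and CDKN3, a phosphatase that removes the activating phosphate of CDK2, were higher in selected cells, CDKN3 by 0.40 (limma adjusted p = 0.0466). WEE1, which inhibits cyclin-dependent kinases by phosphorylation, fell by 0.74 (SE 0.16, limma adjusted p = 0.0188). The rows of WEE1 disagree, since their mean differed by -0.46 (limma adjusted p = 0.104), and the call also ended without parental replicate 1 (adjusted p = 0.0524) or 4 (adjusted p = 0.0725) or the selected array of R7 (adjusted p = 0.0549), in the fit of all 14 arrays (adjusted p = 0.125) and with its random block (adjusted p = 0.148). CDKN3 failed without parental replicate 1, 3 or 4 and without the selected array of R1, R5, R6 or R7 (adjusted p = 0.0546 to 0.144), with median centring (adjusted p = 0.0832) and in the fit of all 14 arrays (adjusted p = 0.0842). The other 21 did not pass, among them, named for their roles after their values were seen, the CDK-activating kinase CDK7 at 0.09 with its cyclin CCNH at 0.01, the SKP2 partners SKP1 at 0.14, CUL1 at 0.18, CKS1B at 0.05 and RBX1 at -0.37 (limma adjusted p = 0.067), the third Cip/Kip inhibitor CDKN1C at -0.05, and CDK1 at 0.13. RBX1, the RING subunit of the same ligase, passed with the olfactory receptor mean as covariate (-0.39, limma adjusted p = 0.0368). So did CINP (0.26, limma adjusted p = 0.0383). The median over the 24 was 0.11. Of 11 measured transcripts of G1 and S phase 2 were called higher, where 5.03% of all genes were. These were the transcription factor E2F1 at 0.31 and the histone mRNA binding protein SLBP at 0.39. RRM2 stood at -0.14 and MCM5 at -0.15, and the median was 0.21. E2F1 failed without parental replicate 1 or 2 or the selected array of R3 or R7, and SLBP without parental replicate 1, 3 or 4 or the selected array of R3, R5 or R7 (limma adjusted p = 0.0524 to 0.114). E2F1 also failed with quantile normalization (adjusted p = 0.0555) and SLBP with median centring (adjusted p = 0.0704). Of 10 transcripts of G2, M and proliferation 1 was called, where 6.92% of all genes were. It was the mitotic kinase AURKB, lower at -0.50 (limma adjusted p = 0.0133). MKI67 and TOP2A both stood at -0.04, and the median was 0.01. AURKB failed only without parental replicate 4 (adjusted p = 0.0543). With the olfactory receptor mean as covariate CCNB1 (-0.50, limma adjusted p = 0.0223) and BUB1 (0.30, limma adjusted p = 0.0424) passed as well.

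Stable cells, resistant sublines grown without inhibitor at passage 10 or later, were next set against parental cells. None of the 10 was called by limma, and 0.00544% of all genes were called. At an unadjusted p below 0.05 there were 2, CDK2 and CCNA1, both higher, where 6.09% of all genes reached that level (2.47% higher). For 0 of the 10 genes were the stable and parental arrays free of overlap, as they were for 2.24% of all genes (0.826% with stable higher and 1.42% lower). The median difference of the 10 genes was 0.05.

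CDK2 in stable arrays was 10.22 (R1), 10.17 (R3), 10.10 (R5), 9.92 (R6) and 9.95 (R7), where the highest parental array had 9.93. All but R6 exceeded it, and R6 fell short by a margin smaller than the parental SD of 0.10. The difference was 0.27 (SE 0.09, unadjusted p = 0.00939, limma adjusted p = 0.528), and after adjustment for the olfactory receptor mean it was 0.31 (limma adjusted p = 0.0598). In all, 8 of 10 resistant arrays had more CDK2 signal than any parental array. These are 2 arrays per subline, not separate observations, and the share of all genes with such a count was not worked out. Selected and stable cells share their parental arrays, so the 2 differences are not separate measurements.

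CCNA1 had a wider spread in stable cells (SD 0.78) than any other member, at 10.20 (R1), 11.12 (R3), 8.98 (R5), 10.40 (R6) and 9.97 (R7). R5 lay inside the parental range of 8.90 to 9.56, and the other 4 lay above it. Its difference of 0.85 was close in size to that in selected cells but had an SE of 0.33 (unadjusted p = 0.0273, limma adjusted p = 0.725). NPAT was at 0.22 (SE 0.12, limma adjusted p = 0.903), with R1 at 9.29 and R3 at 9.31 above the parental range.

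CCNE2 and CDKN1A, both higher in selected cells, had stable means near the parental means. For CCNE2 this mean was over arrays that lay on both sides of the parental range. CCNE2 read 9.75 (R1) and 9.61 (R3), above the parental range, but 8.82 (R5) and 8.93 (R7), below it, and 9.13 (R6). The mean difference was -0.02 with a 95% interval of -0.45 to 0.41. CDKN1A lay at 7.51 in both R1 and R3, 7.63 (R5), 7.72 (R6) and 7.77 (R7), a difference of -0.06 with a 95% interval of -0.24 to 0.12. For the rest the 95% intervals ran from -0.19 to 0.27 for CCNA2, -0.15 to 0.45 for CDKN1B, -0.23 to 0.15 for SKP2, -0.41 to 0.27 for FBXW7 and -0.31 to 0.43 for CDC25A. Of the 24 other CDK2 pathway genes 0 passed, with WEE1 at -0.84 (limma adjusted p = 0.592) and RBX1 at -0.36 (limma adjusted p = 0.523).

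Selected and stable cells were compared as 2 groups of 5 arrays and, where named, with subline as a block. By the labels the block sets each subline against itself. In deviations from group means, however, only the selected arrays of R1 and R6 were most like their own stable array. That of R3 was most like stable R5, that of R5 like stable R7 and that of R7 like stable R1. With its own stable array R7 correlated at -0.468. In the fit without the block CDKN1A was the only member called by limma, higher by 0.64 (SE 0.13, adjusted p = 0.0307), where 2.16% of all genes were called and 1.54% were called higher. It was also the only member whose selected and stable arrays did not overlap, as held for 4.16% of all genes (2.83% with selected higher and 1.33% lower). At an unadjusted p below 0.05 there were 3, CDKN1A, CCNE2 and SKP2, all higher, where 15.3% of all genes reached that level (11.3% higher). The excess of the selected array over the stable array was 1.23 (R1), 0.81 (R3), 0.28 (R5), 0.43 (R6) and 0.48 (R7). All 5 sublines went the same way. In 4 of 5 sublines the stable array lay below the 95th percentile of the olfactory receptor genes, and R7 was at 7.77, so the sizes of these excesses are not compared and no fold is given. The call ended without the selected array of R3 (adjusted p = 0.082) or R7 (adjusted p = 0.081) and without the stable array of R3 (adjusted p = 0.0536), R5 (adjusted p = 0.0771), R6 (adjusted p = 0.0599) or R7 (adjusted p = 0.067). It also ended with median centring (adjusted p = 0.0596) and without both arrays of R7 (adjusted p = 0.154), and it held with subline as a block (adjusted p = 0.0321). The block without R7 (0.69, adjusted p = 0.0885) and the block with the olfactory receptor mean (0.68, adjusted p = 0.643) ended it. Of all 18398 genes the block without R7 called 159. The block with the olfactory receptor mean called 0, as did the fit without both arrays of R7. No gene, here or below, kept a call in those fits.

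Of the 12 p53 targets 3 were called higher and 0 lower, where 2.16% of all genes were called (1.54% higher). The called genes were ZMAT3 at 0.48, SESN1 at 0.44 and DDB2 at 0.54. Differences were above 0 for 8 of the 12, and BAX stood at -0.26 (limma adjusted p = 0.122). RRM2B, at 0.55, did not pass (limma adjusted p = 0.0586). It passed with subline as a block (limma adjusted p = 0.0309) and with the olfactory receptor mean as covariate (0.41, limma adjusted p = 0.048). DDB2 passed whichever single array was left out, but failed without both arrays of R7 (limma adjusted p = 0.0913) and with the block and the olfactory receptor mean together (adjusted p = 0.47). ZMAT3 failed without the selected array of R3, R6 or R7 or the stable array of R5, R6 or R7, and SESN1 failed without the selected array of R3 or R7 or the stable array of R5, R6 or R7 (limma adjusted p = 0.0541 to 0.0831). With median centring ZMAT3 (adjusted p = 0.0759) and SESN1 (adjusted p = 0.0641) failed, as they did without both arrays of R7 (adjusted p = 0.19 and 0.152) and with the block and the olfactory receptor mean (adjusted p = 0.712 and 0.639). E2F1 was the 1 called transcript of G1 and S phase, higher by 0.33 (limma adjusted p = 0.0386), and failed when any 1 of the 5 selected arrays was left out and without the stable array of R3, R5, R6 or R7 (adjusted p = 0.052 to 0.105), with median centring (adjusted p = 0.103) and without both arrays of R7 (adjusted p = 0.224). AURKB was lower, with a difference of -0.50 (limma adjusted p = 0.0154), and failed with median centring (adjusted p = 0.0596), without both arrays of R7 (adjusted p = 0.0733) and with the block and the olfactory receptor mean (adjusted p = 0.458).

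CCNE2 was higher by 0.76 (SE 0.22) and did not pass (limma adjusted p = 0.0979), but passed with subline as a block (SE 0.16, limma adjusted p = 0.0378), a fit that called 4.92% of all genes (3.61% higher) and 2 members, CCNE2 and CDKN1A. It also passed without the stable array of R1 (adjusted p = 0.0352). By subline the excess of the selected array was 0.76 (R1), 0.11 (R3), 1.20 (R5), 0.42 (R6) and 1.32 (R7). R5 and R7 had the largest change, and their stable arrays fell below the parental range. A low stable value by itself enlarges this difference, so the 2 facts are not separate. SKP2 was the remaining member that was higher in the selected array of every subline, by 0.16 to 0.33, and its difference of 0.25 did not pass without the block (limma adjusted p = 0.185) or with it (limma adjusted p = 0.0709). SKP2 passed with array weights (0.31, limma adjusted p = 0.0257) and in the fit of all 14 arrays with subline as a random block (0.25, limma adjusted p = 0.0424). Altogether 3 of 10 members were higher in the selected array of all 5 sublines, where 11.8% of all genes were, and 0 of 10 were lower in all 5, where 7.35% of all genes were. The olfactory receptor mean was lower in all 5 of those arrays, and with it as a covariate CDKN1A was at 0.59 (limma adjusted p = 0.0484), CCNE2 at 0.52 (limma adjusted p = 0.0829) and SKP2 at 0.16 (limma adjusted p = 0.201). Its part in these differences was not tested.

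**Figure D3:**
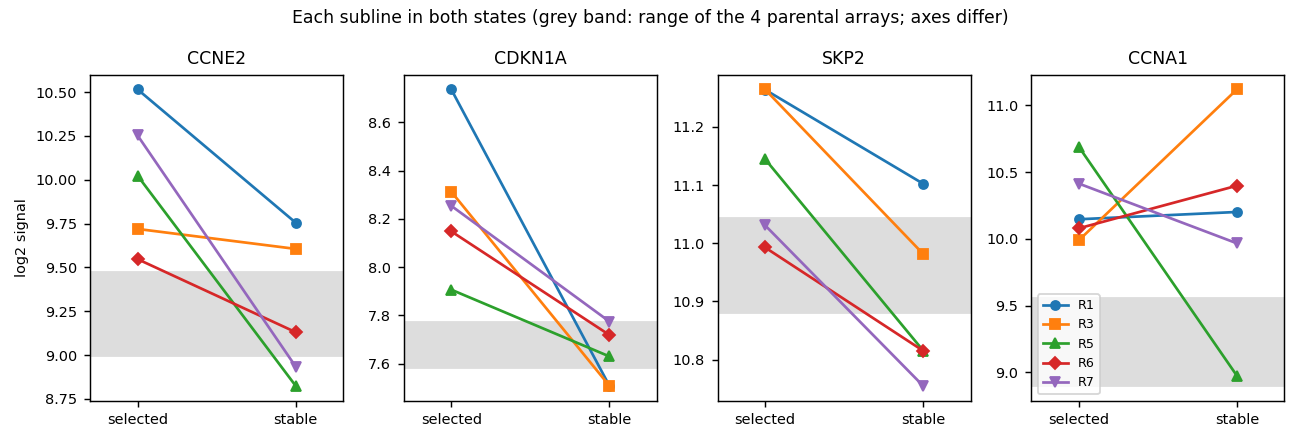
log2 signal (y axis, scale differing between panels) of CCNE2, CDKN1A, SKP2 and CCNA1 in the selected and stable array of each subline (x axis, lines join arrays of a subline), with the range of the 4 parental arrays in grey. The first 3 genes are lower in the stable array of all 5 sublines, and CCNA1 goes in both directions, from -1.13 (R3) to 1.71 (R5) as selected minus stable.

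CCNA1 had no common direction between the states. The selected array was 1.71 above the stable one in R5 and 0.45 above it in R7, but 1.13 below it in R3, 0.32 below it in R6 and 0.05 below it in R1. The mean difference was 0.13 with a 95% interval of -0.54 to 0.81. CDK2 was higher in the selected array of R7 by 0.34, of R5 by 0.15, of R1 by 0.09 and of R6 by 0.03, and lower in that of R3, where the difference was -0.33, which gave a mean of 0.05 (95% interval -0.18 to 0.29). NPAT was at 0.21 (SE 0.11, limma adjusted p = 0.405), most of it from R7 at 0.65. CCNA2, CDKN1B, FBXW7 and CDC25A went both ways among sublines, with mean differences of -0.03, 0.09, 0.00 and 0.06. Among the other CDK2 pathway genes CABLES1, an adaptor known to help WEE1 phosphorylate CDK2, fell by 0.54 (limma adjusted p = 0.0307). The other 23 did not pass, where 2.16% of all genes were called. CABLES1 failed without the selected array of R1, R3, R5 or R6 or the stable array of R3, R5 or R7 (adjusted p = 0.0536 to 0.0855), with median centring (adjusted p = 0.102), without both arrays of R7 (adjusted p = 0.0733) and with the block and the olfactory receptor mean (adjusted p = 0.535).

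Taken subline by subline, with the selected and stable array of each set against the 4 parental arrays in a fit of all 14, no member was called by limma in any subline. That fit called 0% of all genes in R1, R6 and R7, 0.196% in R3 (0.12% higher) and 0.0598% in R5 (0.0217% higher). At an unadjusted p below 0.05, R1 had 4 members, all higher, where 18.8% of all genes reached that level (11.7% higher). R3 had 3, all higher (9.31% of all genes, 6.29% higher), R5 had 1, CDK2, higher (6.26% and 2.51%), R6 had 1, CCNA1, higher (7.36% and 2.22%), and R7 had 2, CDK2 and CCNA1, both higher (5.25% and 2.34%). The 2 arrays of a subline are in different states, and in this fit the SE of a difference was 0.37 for CCNE2, 0.40 for CCNA1 and 0.30 for CDKN1A, against 0.12 for CDK2.

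R1 had the most members above the parental range in both of its arrays, namely CDK2, CCNE2, CCNA1, CCNA2, NPAT and SKP2, 6 of 10 where 19.5% of all genes were so. CDK2 was 0.47 above parental cells there (SE 0.12, unadjusted p = 0.00237, limma adjusted p = 0.158), and its olfactory receptor mean was the lowest of the selected and of the stable arrays, at 6.06 and 6.18. In R3, 4 members were above that range in both arrays (10.8% of all genes), CCNE2, CCNA1, CDKN1B and NPAT. CDKN1B at 10.34 and 10.38 was above every other array of the series there, 0.50 over parental cells (SE 0.14, unadjusted p = 0.0034, limma adjusted p = 0.21). R7 had CDK2, CCNA1 and CDKN1A above the range in both arrays (4.41% of all genes), although its stable CDKN1A, at 7.77, matched the highest parental array to the second decimal. R5 had CDK2 alone (8.33% of all genes) and R6 CCNA1 alone (7.94% of all genes). No member lay below the parental range in both arrays of any subline. Between sublines no member differed beyond the spread by limma's F test with growth state as a covariate (adjusted p from 0.358 for SKP2 to 0.886 for CCNA1), 0 of 10 reached an unadjusted p below 0.05 (15.8% of all genes did), and 0.12% of all genes passed.

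**Figure D4:**
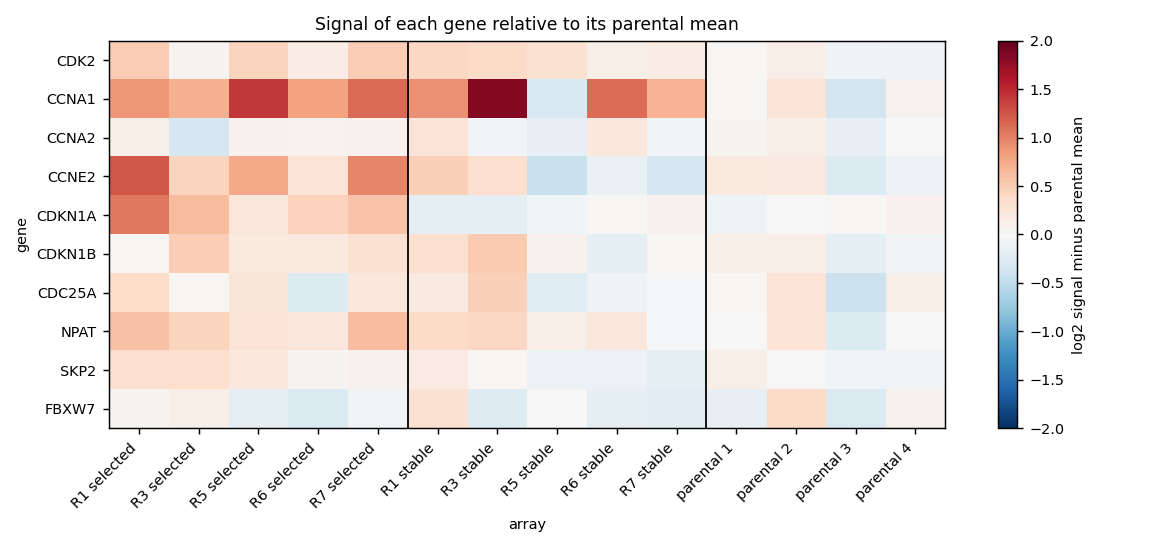
Difference of each gene (y axis) on each array (x axis, in the order selected, stable, parental) from its parental mean on the log2 scale. CCNA1 is above its parental mean on every resistant array but the stable array of R5, and CDKN1A is above its own on all 5 selected arrays and on 2 of 5 stable arrays, R6 and R7.

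Among the members, CCNE2 ran closest to SKP2 (Pearson r = 0.85 over the 14 arrays) and to NPAT (r = 0.81), and CDK2 ran closest to NPAT (r = 0.75). CDKN1A, which shared the selected rise with CCNA1, had r = 0.19 with it, and CCNA2 had at most 0.42 with any member. These are descriptions of 14 arrays that share a background: the olfactory receptor mean itself had r = -0.721 with CCNE2, -0.426 with CDK2, -0.383 with CDKN1A and -0.234 with CCNA1. Over all genes the profile most like that of CDK2 belonged to FERMT2 (r = 0.936), NUP43 (r = 0.918) and ZNF845 (r = 0.916), and, with group means taken out, to HNRNPK (r = 0.972) and the replication genes POLE2 (r = 0.953) and ORC3 (r = 0.952). CCNE2 was most like PDHX (r = 0.967), RBBP9 (r = 0.951) and PBX3 (r = 0.950), and with group means taken out like RCHY1 (r = 0.972), UCHL3 (r = 0.965) and MRPL15 (r = 0.960). CCNA1 was most like PM20D2 (r = 0.869), TCF19 (r = 0.864) and ILF2 (r = 0.863), and within groups like UQCRC1 (r = 0.907), MAD2L1BP (r = 0.902) and LRRC57 (r = 0.889). CDKN1A was most like MGARP (r = 0.951), PGCKA1 (r = 0.947) and NNMT (r = 0.940), and MGARP and NNMT were again among its nearest within groups, beside PCDHB8 (r = 0.896).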

How the data were processed

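Total RNA of 14 samples was biotin-labelled and read on Affymetrix arrays by the whole-transcript protocol, per the labels' protocols. The values deposited by the authors are used as log2 signal (4.34 to 14.92, array medians 7.54 to 7.68), base 2 being taken from their range, while how they were background-corrected, normalized and summarised is not given in the sources used here. Of 32295 rows the platform annotation gives 1 gene for 19148, several for 1376 and 11771 are unnamed. Gene IDs of 19118 rows matched RefSeq, and for 633 genes with several rows that of highest mean signal was used, leaving 18398 genes. Array number limits the precision.

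Tests were limma 3.58.1 in R 4.3.3, two-sided, calling genes at an adjusted p below 0.05 (Benjamini-Hochberg, over all 18398 genes). They were also run on simulated data with noise independent between genes and arrays. Such data lack the shared background and subline pairs of these arrays, so that run cannot check their effect. Each comparison used its own arrays, sublines all 14. Members and lists were chosen with earlier results of these data known. Named genes are the 10 members, called genes and examples of the lists, and the 3 most correlated genes of 4 members, skipping olfactory receptor, small RNA and uncharacterised genes. Replicates of selected and stable arrays are the same subline by the labels. Their deviations from group means correlated at 0.636 (R1), 0.050 (R3), 0.371 (R5), 0.546 (R6) and -0.468 (R7). Alternatives were median centring, quantile normalization, a filter at the 40th percentile, the mean of a gene's rows, a trended robust prior, array weights, the olfactory receptor mean, joint fits, the subline block and leaving out arrays, and, added after the data were seen, leaving out R7 and 2 combinations with the block.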

Additional observations from a re-analysis of the deposited data

Results flagged for a closer look

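CCNA2 in the selected array of R3 was 10.56, apart from the other 4 selected arrays, the nearest of which was at 10.96. The gap made up 0.858 of the range of the 5 arrays. Chance sets apart about 1 array in 20 such groups, and 33 groups were searched. The stable array of R3 was at 10.84, within the parental range of 10.72 to 11.01.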

How the results depend on the processing

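Of the 10 genes, 4 were called in selected against parental cells, against 2 with median centring, 1 in either fit of all 14 arrays and 1 without subline R7, the last chosen after seeing the data. Leaving out 1 array gave 1 to 4. All genes called there numbered 1273, against 800 with median centring, 2318 with the olfactory receptor covariate and 621 without R7, and 517 to 1343 leaving out 1 array. In stable against parental cells 0 members were called under every alternative run, and the 1 gene called became 4 with the filter, 5 with the trended robust prior, 286 with array weights, 75 with the covariate, 8 in the fit of all 14 arrays and 7 with its random block, and 1 to 26 leaving out 1 array. In selected against stable cells 1 member was called, against 2 with the replicate block, 3 with array weights, 2 in the fit of all 14 arrays, 3 with its random block and 0 with median centring, without R7, with the replicate block without R7, and with the replicate block and covariate together, the last 3 chosen after seeing the data. Leaving out 1 array gave 0 to 2. All genes called there numbered 397, against 906 with the replicate block, 81 with median centring, 614 with quantile normalization, 1480 with array weights, 680 in the fit of all 14 arrays, 1367 with its random block, 0 without R7, 159 with the replicate block without R7 and 0 with the block and covariate, and 86 to 962 leaving out 1 array. Among members the replicate block in the fit of selected and stable arrays changed the call of CCNE2 alone, and the random block in the fit of all 14 arrays added SKP2. The cause of these shifts was not tested. In sublines, and between them, 0 members were called under every alternative run. Array weights were not run there, and the trended robust prior was run between sublines but not for single sublines against parental cells.

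Reversals touched differences that did not pass. For selected against parental cells CCNA2 was at -0.02 with quantile normalization, -0.05 with array weights, -0.01 with the covariate, -0.01 without R7 and, leaving out 1 array, -0.05 to 0.09, with FBXW7 at -0.16 to 0.06 and CDC25A at -0.03 to 0.22. For stable against parental cells array weights gave CCNA2 -0.04, CDKN1A 0.01, CDC25A -0.13 and CCNE1 -0.03, the covariate gave CCNE2 0.08 and FBXW7 0.00, and leaving out R7 gave CCNE2 0.06. Leaving out 1 array there gave CCNE2 -0.15 to 0.08, FBXW7 -0.17 to 0.06, CCNA2 -0.01 to 0.09 and CDC25A -0.08 to 0.15. For selected against stable cells the covariate gave CDK2 -0.02, FBXW7 -0.11 and CDC25A -0.07, leaving out R7, with or without the block, gave CDK2 -0.02 and FBXW7 -0.04, and the block with the covariate gave CDK2 -0.10, CCNA1 -0.04, NPAT -0.09, FBXW7 -0.14 and CDC25A -0.09. Leaving out 1 array there gave CCNA1 -0.16 to 0.38, CCNA2 -0.08 to 0.05, FBXW7 -0.04 to 0.10 and CDC25A -0.02 to 0.16. FBXW7 had too little signal to enter the filtered fits.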
